A study of Homo sapiens with 12 samples.

Results

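The IFIT genes (interferon-induced proteins with tetratricopeptide repeats) were followed in 3 human cancer cell lines, as the rows of the deposited log2 expression table whose symbol was IFIT1, IFIT2, IFIT3 or IFIT5. All 4 were found, out of 20545 symbols, and each had a value on all 12 arrays. The lines were HCT116 (colon carcinoma), HL60 (promyelocytic leukaemia) and SNU398 (hepatocellular carcinoma). The cells had been given 5-Aza-CdR, also called decitabine, a nucleoside drug that depletes DNA methyltransferase and so lowers DNA methylation, either alone or within a combination whose other component, dose and duration the labels do not give. Every group thus had 5-Aza-CdR, and no untreated group was analysed here, so a difference below is always the combination minus 5-Aza-CdR alone. Each of the 6 groups had 2 arrays, numbered 1 and 2. The 2 arrays of a line with the same number were taken as a pair, by that number alone. Whether replicates 1 and 2 were grown apart is not stated, so every p-value reflects the scatter of these 12 samples alone, which may be technical. The table gives 1 value per symbol without its probe, and the members are paralogues, so binding of one member's RNA to another's probe cannot be checked.

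IFIT proteins are cytoplasmic RNA-binding proteins that are nearly silent in resting cells and are strongly induced by interferons and by sensing of double-stranded RNA. IFIT1 binds RNA whose cap lacks the ribose methylation of host messenger RNA and keeps it from being translated. IFIT3 binds IFIT1 and stabilises its hold on such RNA, IFIT2 binds AU-rich RNA and promotes apoptosis, and IFIT5 binds RNA with a triphosphate end. Interferon acts on these genes through a transcription factor complex that includes STAT2 and IRF9 and recognises the interferon-stimulated response element.

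In the RefSeq annotation of GRCh38.p14 the 4 genes lie within 119.0 kb of chromosome 10. IFIT2 is at chr10:89302046-89309271, IFIT3 at chr10:89327997-89340968, IFIT1 at chr10:89392623-89406487 and IFIT5 at chr10:89414568-89420997. The RefSeq promoter table matched 3 of the 4 members, and the 250 bases before the start are printed for these, because the core of the response element recurs in each while their CpG content differs. Capitals mark GAAANNGAAA, searched on both strands and found here as its reverse complement; no match overlaps another. All are on the plus strand of GRCh38.p14, at chr10:89392373-89392622 for IFIT1, chr10:89327747-89327996 for the first start of IFIT3 and chr10:89414318-89414567 for IFIT5.
IFIT1: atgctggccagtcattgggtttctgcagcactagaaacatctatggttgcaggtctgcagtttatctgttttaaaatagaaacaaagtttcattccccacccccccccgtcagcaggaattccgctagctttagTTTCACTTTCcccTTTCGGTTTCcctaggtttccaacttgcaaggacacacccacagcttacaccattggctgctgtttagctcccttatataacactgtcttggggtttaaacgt
IFIT3: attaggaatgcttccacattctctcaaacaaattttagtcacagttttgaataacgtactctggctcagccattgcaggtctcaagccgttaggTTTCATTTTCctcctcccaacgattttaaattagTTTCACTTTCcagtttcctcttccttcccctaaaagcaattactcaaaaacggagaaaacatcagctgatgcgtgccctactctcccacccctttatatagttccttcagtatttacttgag
IFIT5: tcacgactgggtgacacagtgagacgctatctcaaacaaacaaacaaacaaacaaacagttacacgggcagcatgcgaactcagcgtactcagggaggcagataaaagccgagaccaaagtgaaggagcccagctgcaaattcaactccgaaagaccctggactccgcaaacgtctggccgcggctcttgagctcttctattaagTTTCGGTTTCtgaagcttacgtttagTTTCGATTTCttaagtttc

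Each of the 3 windows held 2 matches, and so did the window of a second IFIT3 start. Among all 35116 RefSeq windows of the same length, 3.02% held at least 1 match and 0.225% at least 2. The first base of the match nearest the start lay at -103 in IFIT1, -122 in IFIT3 and -19 in IFIT5, counted from the start site. At the second IFIT3 start it lay at -51. The IFIT1 and IFIT3 windows printed held 4 and 5 CpG dinucleotides, the sites that DNA methylation occupies, and the IFIT5 window 14. The window of the second IFIT3 start held 1. The median of all windows was 11, and 38.1% of them held at most 5. A match describes these letters and shows neither binding nor methylation, which were not measured.

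The arrays were not alike. On the HCT116 replicate 2 arrays 4938 genes were listed at exactly 0 and were treated as not measured. No member was among them, and 12349 genes were measured on every array. The 4 HCT116 arrays listed 17290 symbols and the 8 arrays of the other lines 19402. In levels against HCT116, line and array content or processing therefore cannot be told apart. The median log2 level was 8.04 and 8.05 on those 2 arrays and between 8.48 and 8.62 on the other arrays. Each symbol is read here only against itself between arrays, and whether its value came from the same probe on all of them is not known. MPO, the granulocyte myeloperoxidase, was at 14.94 or more in HL60 and at 7.70 or less in SNU398, and the epithelial keratin KRT19 was at 11.24 or more in HCT116 and at 7.76 or less in the other lines. Of the other listed markers some parted the lines as well, while others, among them those that follow, did not single out the line of their tissue. EPCAM, an epithelial adhesion protein, ran from 10.90 to 11.47 in SNU398, while in HCT116 its levels were 11.50 and 12.16 in replicate 1 but 8.16 and 8.57 in replicate 2. CDX2, an intestinal transcription factor named here after its values were seen, was at 9.16 to 9.55 in SNU398 and at 8.48 to 8.602 in HCT116. ALB, the albumin of hepatocytes, was at 8.17 to 8.27 in SNU398 and no lower in HL60 (8.38 to 8.99), so it did not mark SNU398 as liver.

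IFIT1 and IFIT2 were higher with the combination in all 6 pairs, and IFIT3 in both pairs of HCT116 and HL60 but in 1 pair of SNU398, by 0.00. IFIT5 was higher in both pairs in HL60 alone, by 0.19 and 0.03. Of the 12349 genes measured in all pairs, 3.42% were above 0 in all 6. The members that differed most were not the same in each line: IFIT1 in SNU398 and HCT116, IFIT2 and IFIT3 in HL60. Low levels, such as those of IFIT1 in HL60, cannot be told from background. Differences between lines were not shown by a test (given below), and the arrays measure pooled cells, so more expressing cells and more RNA per cell cannot be told apart.

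**Figure D1:**
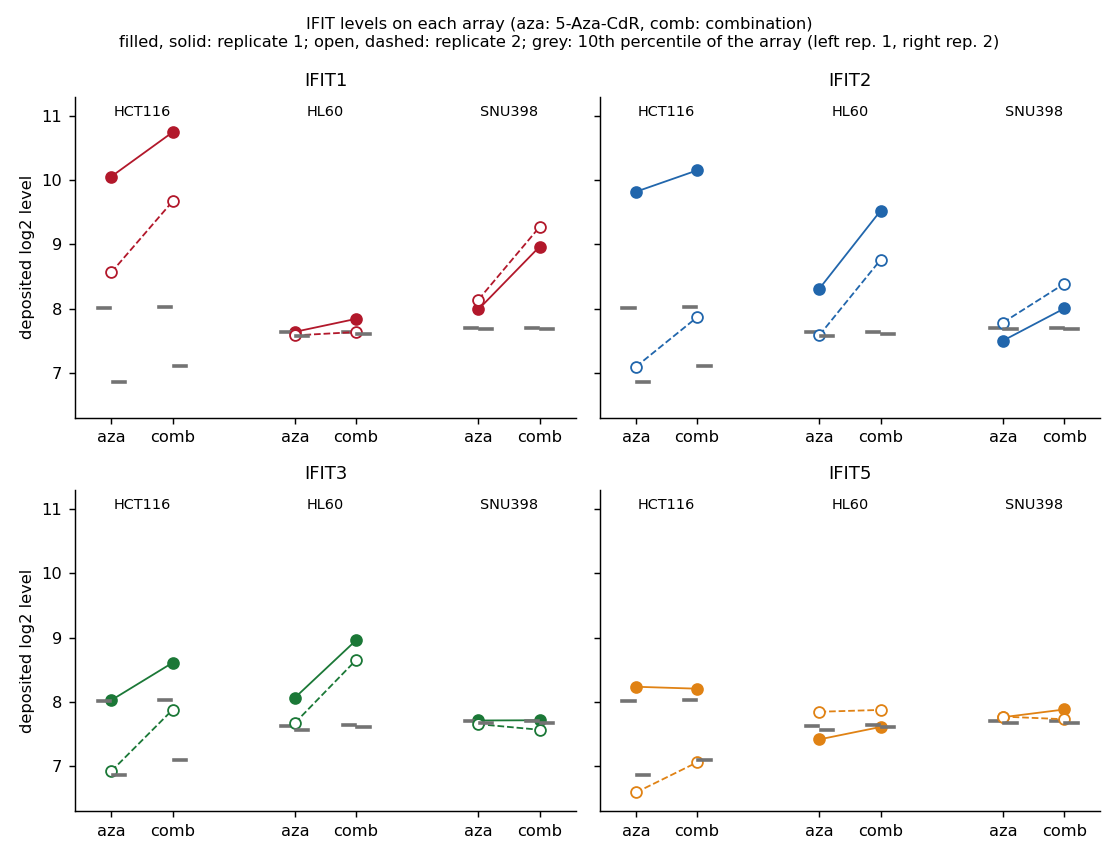
Deposited log2 level of each IFIT gene on each of the 12 arrays, by line and treatment; lines join the 2 arrays of a pair (filled and solid for replicate 1, open and dashed for replicate 2), and grey ticks give the 10th percentile of each array. IFIT1 stands highest in HCT116, at up to 10.74, IFIT3 stays between 7.56 and 7.71 in SNU398, and IFIT5 stays between 7.41 and 7.88 in HL60 and SNU398.

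The widest pair differences in SNU398 were those of IFIT1 and IFIT2. IFIT1 was at 7.99 and 8.14 with 5-Aza-CdR alone and at 8.96 and 9.27 with the combination. Both combination arrays lay above both 5-Aza-CdR arrays. The pair differences of IFIT1 were 0.98 and 1.13, the 11th and the 4th largest of 19402 genes, and it was the 1 member at least 1.5-fold higher in both pairs, as were 0.33% of genes. IFIT2 was at 7.50 and 7.78 with 5-Aza-CdR alone and at 8.0002 and 8.39 with the combination. Its groups did not overlap either, with pair differences of 0.50 and 0.60. These 2 members were above 0 in both pairs, as were 29.6% of genes. The share of all genes whose groups did not overlap is not given here, so the separation alone does not set these members apart. IFIT3, in contrast, was at 7.71 and 7.65 with 5-Aza-CdR alone and at 7.71 and 7.56 with the combination, so the groups overlapped. IFIT5 was at 7.76 and 7.77 against 7.88 and 7.73, also overlapping.

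In limma fitted to the pairs of SNU398, IFIT1 rose 2.08-fold (log2 1.06 ± 0.08 SE, n = 2 pairs, adjusted p = 3.9e-06) and IFIT2 rose 1.47-fold (0.55 ± 0.08, adjusted p = 0.0011). The 2 calls stand against 2.43% of 19402 genes called higher and 1.23% called lower in that fit. limma takes part of each gene's spread from all genes together. With 2 pairs most of the degrees of freedom were therefore not the gene's own: 14.95 in SNU398, 4.15 in HL60 and 44.66 in HCT116. The p-values of the 3 lines are thus not on an equal footing. IFIT3 (-0.04, 95% interval -0.22 to 0.13) and IFIT5 (0.04, -0.14 to 0.22) were not called there. In the unpaired limma fit the same intervals were -0.96 to 0.88 and -1.23 to 1.31, which include the 0.55 of IFIT2. The fit to the pairs of SNU398 was taken up with its calls known from earlier work on these data. In the unpaired limma fit to all 12 arrays no gene was called in SNU398 (0%, 32 genes at an unadjusted p under 0.05), and IFIT1 had 1.06 ± 0.50 (adjusted p = 1). limma on all 6 pairs, with 1 spread per gene shared by the 3 lines, also called 0 genes there (429 at an unadjusted p under 0.05) and gave IFIT1 an adjusted p = 0.62.

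In HL60 the widest pair differences were those of IFIT2 and IFIT3. IFIT2 was at 8.31 and 7.59 with 5-Aza-CdR alone and at 9.53 and 8.76 with the combination, and its pair differences were 1.21 and 1.17. IFIT3 was at 8.06 and 7.67 against 8.96 and 8.65, with pair differences of 0.89 and 0.98. For both genes the combination arrays lay above both 5-Aza-CdR arrays, and the share of all genes with such a separation is not given here. IFIT1 was at 7.64 and 7.58 against 7.84 and 7.63, and its groups overlapped. IFIT5 was at 7.41 and 7.84 against 7.61 and 7.87, and its 2 replicate numbers differed more than its treatments.

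The HL60 pairs differed in spread, with an SD over all genes of 0.158 in pair 1 and 0.552 in pair 2. The IFIT2 difference was the 4th largest of 19402 genes in pair 1 and the 631st in pair 2, although its size was nearly the same. For IFIT3 these places were the 21st and the 1084th. Both members were at least 1.5-fold higher in both pairs, as were 0.227% of genes, and all 4 members were above 0 in both pairs, as were 28% of genes. limma called no gene when fitted to both HL60 pairs (0%, 184 at an unadjusted p under 0.05), with an adjusted p = 0.895 for IFIT2 (1.19 ± 0.18 SE, n = 2 pairs) and IFIT3 (0.94 ± 0.18). In the unpaired limma fit, which called 0% of genes (26 at an unadjusted p under 0.05), the SEs were 0.96 and 0.40.

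In HCT116 every member read lower on the replicate 2 array than on the replicate 1 array of the same treatment. IFIT1 was at 10.06 and 8.56 with 5-Aza-CdR alone and at 10.74 and 9.67 with the combination, so the groups overlapped while both pairs differed in the same direction, by 0.69 and 1.10. IFIT2 was at 9.82 and 7.09 against 10.15 and 7.86, a gap of over 2 units between replicates beside pair differences of 0.33 and 0.77. The IFIT2 groups overlapped as well. IFIT3 was at 8.02 and 6.92 against 8.61 and 7.87, with pair differences of 0.58 and 0.96. IFIT5 was at 8.23 and 6.59 against 8.20 and 7.06, with pair differences of -0.03 and 0.47. The groups of these 2 genes overlapped too, and IFIT1, IFIT2 and IFIT3 were the 3 members above 0 in both pairs, as were 30% of genes.

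IFIT1 was the 1 member at least 1.5-fold higher in both HCT116 pairs, as were 0.389% of genes. IFIT3 was just outside that bound in pair 1, at 1.497-fold. In limma fitted to the pairs of HCT116 no member was called, against 0.17% of 12349 genes called higher and 0.0324% called lower. IFIT1 came nearest (0.90 ± 0.22 SE, n = 2 pairs, adjusted p = 0.081), followed by IFIT3 (0.77 ± 0.22, adjusted p = 0.19) and IFIT2 (0.55 ± 0.22, adjusted p = 0.49). Quantile normalization, or a trend with robust variance, left 0 genes called in HCT116 in that fit, with an adjusted p of 0.66 and 0.80 for IFIT1. The unpaired limma fit called 0% of genes (18 at an unadjusted p under 0.05). With 1 HCT116 array left out, the unpaired IFIT2 value ran from -0.81 without 5-Aza-CdR replicate 2 to 1.91 without 5-Aza-CdR replicate 1.

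**Figure D2:**
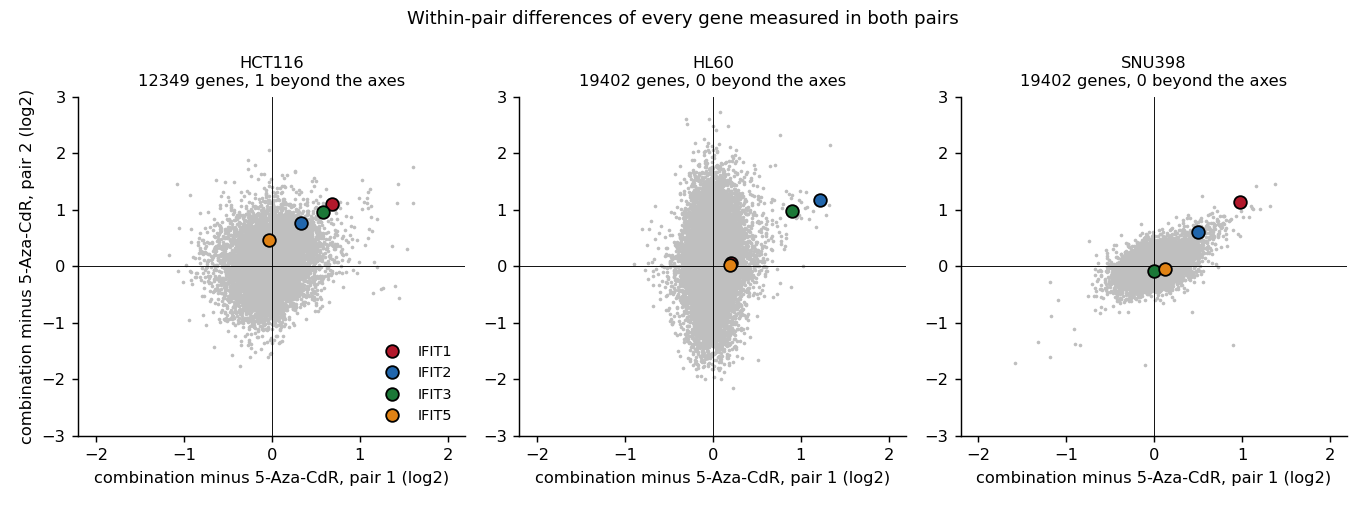
Combination minus 5-Aza-CdR (log2) in pair 1 against pair 2 for every gene measured in both pairs of a line (grey), with the 4 IFIT genes in colour; 1 HCT116 gene lies beyond the axes. In SNU398 IFIT1 (0.98 and 1.13) sits at the upper right edge of the cloud while IFIT3 sits at its centre, and in HL60 IFIT2 and IFIT3 sit at the right edge while IFIT1 lies under the IFIT5 point near 0 on the axis of pair 2.

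Averaged over the 3 lines, the difference was 0.77 for IFIT2, 0.69 for IFIT1, 0.55 for IFIT3 and 0.12 for IFIT5. The SEs in the unpaired limma fit were 0.55, 0.29, 0.23 and 0.32, and no member was called (adjusted p = 1, 0% of genes called, 14 at an unadjusted p under 0.05). On all 6 pairs the SEs were between 0.08 and 0.09 and the adjusted p in limma was 0.14 for IFIT2, 0.16 for IFIT1, 0.21 for IFIT3 and 0.53 for IFIT5. That fit called 1 gene, 0.0081% of those tested, and no member. The gene was MX1, an antiviral GTPase, which rose by 1.02 (adjusted p = 0.049).

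The contrast between lines was tested as a difference of differences. IFIT3 differed between SNU398 and HL60 by -0.98, with an SE of 0.56 in the unpaired fit and 0.19 on the pairs. IFIT1 differed between the same lines in the opposite direction, by 0.93 with SEs of 0.71 and 0.20. limma called neither (adjusted p = 1 unpaired; 0.83 on the pairs for both), and no other such difference of a member was called, among 12 in all. Both fits called 0% of genes for every pair of lines. At an unadjusted p under 0.05 there were between 8 and 11 genes unpaired and between 524 and 770 on the pairs. The comparisons share lines, so they are not independent of each other.

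The order of the levels themselves also differed between members. Over both treatments IFIT1 was highest in HCT116 (9.76 ± 0.91 SD, n = 4 arrays), then SNU398 (8.59 ± 0.63), then HL60 (7.67 ± 0.11). The unpaired limma fit, which takes the 4 arrays of a line as independent, called the step from HCT116 to HL60 (-2.09 ± 0.36 SE, adjusted p = 0.0054), against 4.66% of 12349 genes called lower in HL60 and 19.7% called higher, 24.4% in all. The arrays of a pair vary together, however, and with each pair averaged first, which leaves 2 values a line, the step was not called (-2.09 ± 0.47 SE, adjusted p = 0.10). Averaging called 0.632% of genes lower and 1.31% higher in that comparison, 1.94% in all. It was also not called without replicate 2 of both HL60 groups (-2.02, adjusted p = 0.067). The steps from HCT116 to SNU398 (-1.17) and between SNU398 and HL60 (0.92) were called in neither limma fit (adjusted p = 0.057 and 0.14 unpaired, 0.28 and 0.46 with pairs averaged).

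The scale of the arrays bore on these steps. All genes together had a median of 0.70 in HL60 minus HCT116 and 0.66 in SNU398 minus HCT116, and with the arrays centred these medians were -0.08 and -0.145. After centring, with pairs averaged, limma called the IFIT1 steps from HCT116 to HL60 (-2.87, adjusted p = 0.0085) and to SNU398 (-1.97, adjusted p = 0.031) but not that between SNU398 and HL60 (0.90, adjusted p = 0.082). In the unpaired fit, leaving out HCT116 5-Aza-CdR replicate 2 brought the steps of SNU398 against HCT116 and HL60 past the threshold (adjusted p = 0.019 and 0.049), and leaving out replicate 1 of that group did so for SNU398 against HL60 (adjusted p = 0.049).

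IFIT2 was highest in HCT116 (8.73 ± 1.49), then HL60 (8.55 ± 0.81), then SNU398 (7.92 ± 0.37), and neighbours overlapped. IFIT3 was highest in HL60 (8.33 ± 0.58), then HCT116 (7.86 ± 0.70), then SNU398 (7.66 ± 0.07), but with the arrays centred HL60 lay below HCT116 by -0.30. IFIT5 had means of 7.78 ± 0.07 in SNU398, 7.68 ± 0.22 in HL60 and 7.52 ± 0.83 in HCT116, but with the arrays centred HCT116 lay above both other lines, with -0.54 for SNU398 minus HCT116 and -0.62 for HL60 minus HCT116. None of these steps was called in the unpaired limma fit, where calls took 7.67% of genes higher and 6.54% lower in SNU398 minus HL60, and 15.7% higher and 2.3% lower in SNU398 minus HCT116. With pairs averaged none was called either, where calls took 1.36% higher and 1.21% lower in the first comparison and 0.146% higher and 0.0324% lower in the second, 2.56% and 0.178% in all.

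In the unpaired fit on centred arrays limma called IFIT2 lower in SNU398 than in HCT116 (-1.62, adjusted p = 0.032), and IFIT3 lower in SNU398 than in HCT116 (-0.999, adjusted p = 0.0029) and in HL60 (-0.70, adjusted p = 0.011). It also called IFIT5 lower in HL60 than in HCT116 (-0.62, adjusted p = 0.026), opposite to the sign without centring. With pairs averaged on centred arrays none of these 4 was called, with adjusted p between 0.088 and 0.19. The lower IFIT3 of SNU398 against HL60 was also called unpaired after quantile normalization (-0.70, adjusted p = 0.0078) and without replicate 2 of both HCT116 groups (-0.68, adjusted p = 0.023). Without those arrays IFIT2 was called lower in SNU398 (-2.07, adjusted p = 0.012) and in HL60 (-1.44, adjusted p = 0.029) than in HCT116, and without HCT116 5-Aza-CdR replicate 1 IFIT3 was called higher in HL60 than in HCT116 (0.75, adjusted p = 0.043).

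The rest of the pathway was read from lists of interferon ligands, receptors and signalling proteins, sensors, other effectors, cap methyltransferases and neighbouring genes. Of 21 interferon ligand genes 4 were in the table: IFNB1, the interferon beta gene, and the interferon lambda genes IL29, IL28A and IL28B. In HL60 and SNU398 their levels lay between 7.201 (IL28A) and 7.77 (IL28B) under either treatment. In limma fitted to the pairs no ligand was called, with 0 at an unadjusted p under 0.05, and their median difference was -0.02 in HL60 and -0.08 in SNU398. Other interferon genes were not analysed here. The calls in these lists come from the fits to the pairs of 1 line. Over all genes those fits called 2.43% higher and 1.23% lower in SNU398, 0.17% and 0.0324% in HCT116, and 0% in HL60. At an unadjusted p under 0.05 in limma they had 3162 of 19402 genes in SNU398, 1033 of 12349 in HCT116 and 184 of 19402 in HL60. The unpaired limma fit and that to all 6 pairs called none of the listed genes in any single line. Quantile normalization, or a trend with robust variance, ended every HCT116 call in these lists, and a mean log2 of at least 9 left those of IFITM3 and MX1. In SNU398 the trend with robust variance ended the calls of STAT2, IL10RB, TYK2, IFIH1 and TRIM25, and centring that of TRIM25.

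In the SNU398 pairs limma called 4 of 11 receptor and signalling genes higher and 0 lower, against 2.43% and 1.23% of all genes. They were IRF9 (0.60, adjusted p = 8.9e-04), STAT2 (0.34), the receptor chain IL10RB (0.34) and the kinase TYK2 (0.34), the last 3 with adjusted p between 0.029 and 0.034. At an unadjusted p under 0.05 limma had 5, the other being the receptor chain IFNAR2, which was lower (-0.23). It is named here after its value was seen. The median of these 11 genes, 8 of them above 0, was 0.06, against -0.00 over all genes. In HCT116 7 were measured and limma called none of them, with 2 at an unadjusted p under 0.05, IRF9 (0.51) and TYK2 (-0.50), while STAT2 had 0.05. In HL60 the values were 0.11 for STAT2 and 0.25 for IRF9, and limma called none of the 11 (0 at an unadjusted p under 0.05). The median was 0.11 there and 0.05 in HCT116, against 0.02 and 0.03 over all genes.

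Among 14 sensors and adaptors measured, IRF7, a transcription factor of the interferon loop, and IFIH1, the double-stranded RNA sensor MDA5, rose in limma fitted to both SNU398 pairs, by 0.57 and 0.35 (adjusted p = 0.0013 and 0.027). In HCT116 IFIH1 was the 1 of 11 that limma called (1.10, adjusted p = 0.011), against 0.17% of all genes called higher and 0.0324% lower. There 7 of the 11 were above 0, and IRF7 also had an unadjusted p under 0.05 in limma. IFIH1 had 1.06 in HL60, close to IFIT2 and IFIT3, and was not called by limma there (adjusted p = 0.895), nor was any other sensor, while it and DHX58 (0.98), a helicase of the same family chosen here after its value was seen, were the 2 at an unadjusted p under 0.05. The list's median was 0.12 in HCT116, and in both other lines it was 0.08 (HL60) or 0.07 (SNU398).

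The other interferon-stimulated effectors placed the members differently in each line. In HCT116 the effectors had a median of 0.46, against 0.03 over all genes, and 27 of 31 were above 0, as were 54.2% of all genes. In limma fitted to the HCT116 pairs 9 of them were called higher and 0 lower, against 0.17% and 0.0324% of all genes. They were led by IFITM3, which restricts virus entry, the antiviral GTPase MX1, the oligoadenylate synthetase OAS1 and LGALS3BP (1.68, 1.44, 1.36 and 1.277, adjusted p from 1.6e-05 to 0.0020). IFIT1 stood 10th among these 31 and the 4 members, IFIT3 13th, IFIT2 18th and IFIT5 23rd. In SNU398 the median was 0.10, against -0.00 over all genes, with 28 of 40 above 0, as were 49.1% of all genes. There 7 were called higher and 0 lower, against 2.43% and 1.23% of all genes. They were led by the interferon-inducible mitochondrial protein IFI27 (1.29), MX1 (1.20), PARP12 (1.08) and IFITM3 (0.58), with adjusted p from 1.3e-06 to 0.0014. IFIT1 stood 4th of 44, just after IFI27, MX1 and PARP12, IFIT2 7th, IFIT5 28th and IFIT3 38th.

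In HL60 the effectors had a median of -0.01, against 0.02 over all genes, with 19 of 40 above 0, as were 54.5% of all genes. limma called none of them there, and 2 had an unadjusted p under 0.05. IFIT2 stood 1st of 44 and IFIT3 4th. The 2 effectors between them, picked out after their values were seen, were IFI16, a DNA sensor (1.19), and ISG20, an exonuclease (1.04). MX1 had 0.42, IFITM3 0.04, IFI27 -0.02 and PARP12 -0.01 in HL60. IFIT1 stood 10th and IFIT5 12th, at 0.13 and 0.11.

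**Figure D3:**
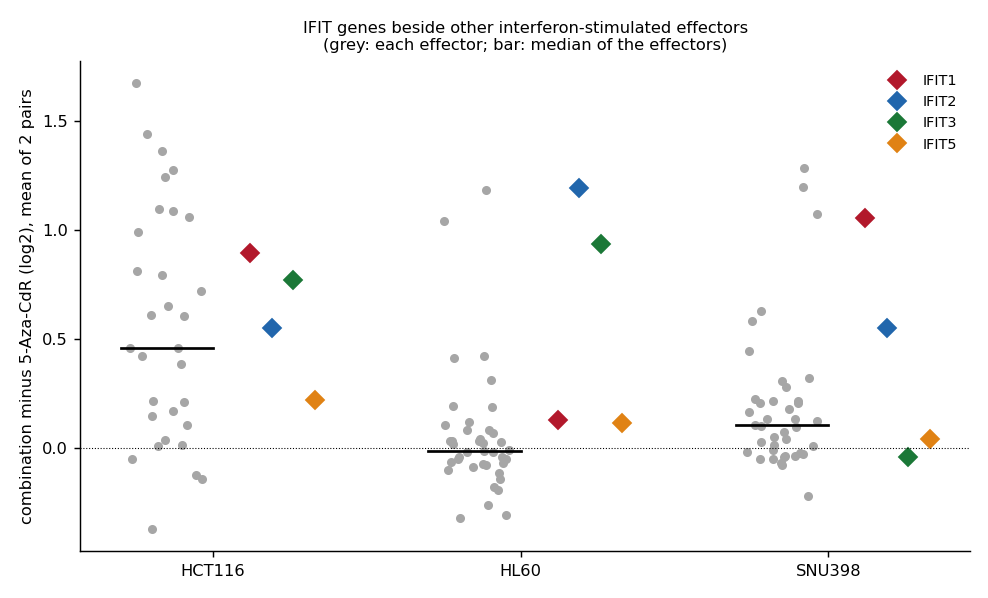
Combination minus 5-Aza-CdR (log2, mean of the 2 pairs) for each other interferon-stimulated effector (grey, with the median as a bar) and for the 4 IFIT genes (diamonds) in each line. The effector medians are 0.46 in HCT116, 0.10 in SNU398 and -0.01 in HL60, and in HL60 only IFI16 (1.19) and ISG20 (1.04) among the effectors stand near IFIT2 and IFIT3.

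The enzymes that cap messenger RNA and methylate the cap, whose product IFIT1 tells apart from foreign RNA, gave no call in limma fitted to the pairs of any line, and none had an unadjusted p under 0.05. CMTR1, listed as FTSJD2, which methylates the first ribose, had 0.03 in HCT116, -0.06 in HL60 and -0.08 in SNU398. The list's medians were 0.02 (4 genes), -0.06 (5 genes) and -0.08 (5 genes) in the same order.

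Of the coding genes on either side of the cluster 8 were in the table. limma fitted to the pairs called none of them in any line, and SNU398 had 3 at an unadjusted p under 0.05 (3162 of all 19402 genes), HCT116 had 1 (1033 of 12349) and HL60 had 0 (184 of 19402). Their medians were -0.10 in HCT116 (6 measured), 0.04 in HL60 and 0.04 in SNU398. SLC16A12, a transporter gene next to IFIT5, had 0.10 and -0.04 in the HL60 pairs and -0.08 and 0.26 in those of SNU398. LIPA, the lysosomal acid lipase gene, has an annotated span of chr10:89213572-89414679 that takes in IFIT2, IFIT3 and IFIT1 and reaches into IFIT5. The position of its probe is not known. It had -0.18 and 1.24 in the HL60 pairs, 0.11 and 0.84 in those of HCT116, and 0.01 and -0.06 in those of SNU398. CH25H, cholesterol 25-hydroxylase, itself an interferon-stimulated gene, had -0.12 and 0.02 in HL60 and 0.09 and 0.29 in SNU398. Within the cluster IFIT3 lies between IFIT2 and IFIT1, and in SNU398 both of those rose while IFIT3 differed by 0.00 and -0.09.

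**Figure D4:**
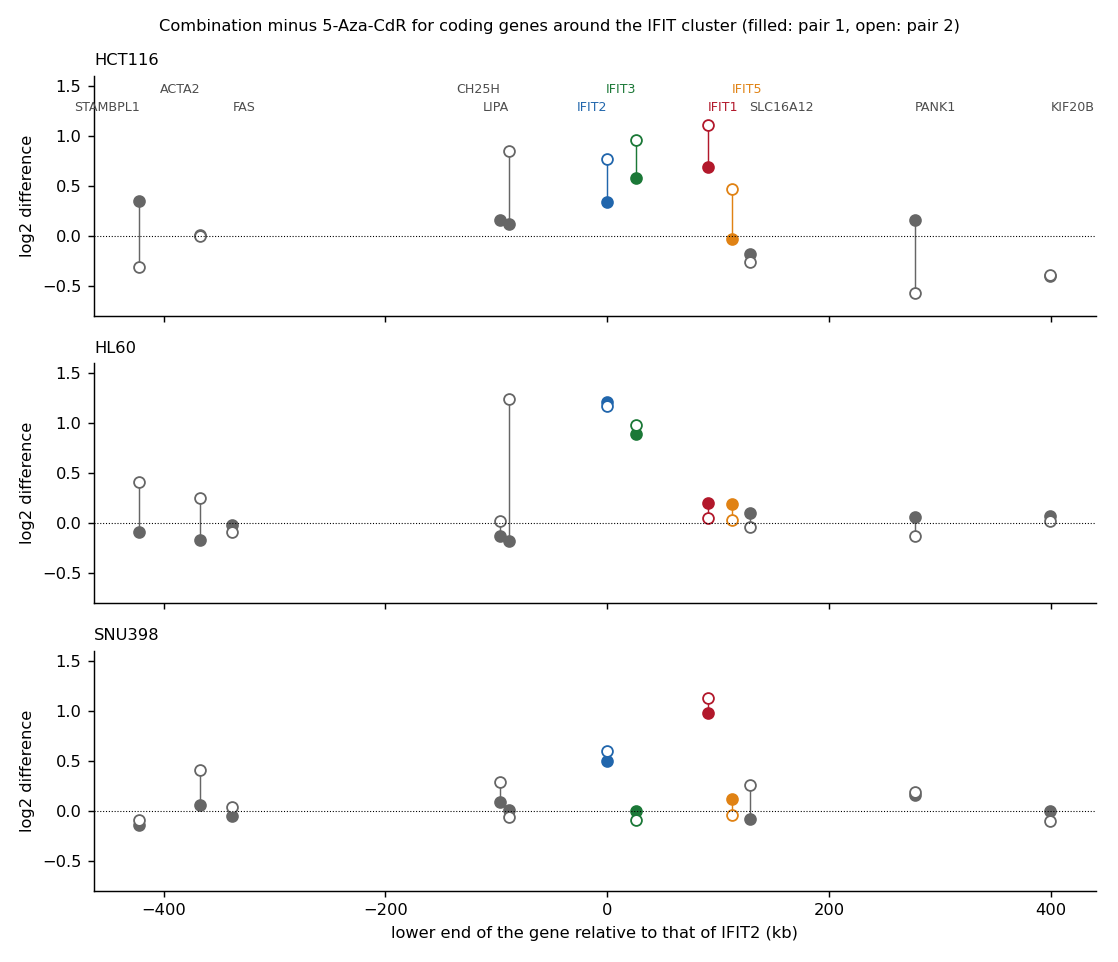
Combination minus 5-Aza-CdR (log2) in pair 1 (filled) and pair 2 (open) for coding genes around the IFIT cluster, placed by the distance of their lower end from that of IFIT2 in kb. The differences of IFIT2 and IFIT3 in HL60 and of IFIT1 and IFIT2 in SNU398 recur in both pairs, while LIPA has -0.18 and 1.24 in HL60.

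For each member, the 3 genes with the most similar differences over the 6 pairs were found among 12348 others, by the root mean square distance. Nearest to IFIT1 was IFI27 (distance 0.17 log2 units, r = 0.987), followed by HDGFL1 (0.22) and the amylase copy AMY1C (0.24), which a probe may not tell from its near-identical copies. Nearest to IFIT2 were B2M, the light chain of MHC class I (0.23, r = 0.982), the germline RNA-binding gene DAZL (0.26) and the matrix protease MMP9 (0.28). Nearest to IFIT3 were the kinase gene RIPK2 (0.12, r = 0.976), the MHC class II invariant chain CD74 (0.20) and the mitochondrial folate enzyme MTHFD2 (0.22). IFIT5, whose differences were small, had LOC642946, GIP and CRTC3 at distances of 0.06 each. The correlations describe 6 points that share arrays by pair, and no member was among the 3 nearest of another.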

How the data were processed

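Biotinylated cRNA of each of the 12 samples was hybridised to Illumina arrays, per the labels' protocols. The values deposited by the authors, 1 per gene symbol, were read as log2 levels from their range, since no unit is stated, and were made with limma, per the submitters' processing notes. For its version, background correction, normalization and probe choice, nothing is given in the sources used here. A table of bead-level signals has 44 columns for 11 arrays that match no sample's labels and was not used.

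limma 3.58.1 in R 4.3.3 (lmFit, eBayes) was fitted to 6 group means over all 12 arrays, with no filter on low values, and Benjamini-Hochberg adjustment over all genes of a contrast. Calls are at an adjusted p under 0.05, two-sided. A contrast was tested for genes measured on every array of its lines. Arrays were paired by replicate number, which is all that the sample titles give. Deviations of same-numbered arrays from their group means correlated by r = 0.907 in HCT116, 0.883 in HL60 and 0.841 in SNU398. This shows that same-numbered arrays vary together, but whether through culture, array run or processing cannot be told. Fits to pair differences, over all 6 pairs or the 2 pairs of 1 line, and levels with each pair averaged, were alternatives, as were array centring, quantile normalization, a trend with robust variance, a mean log2 of at least 9, zeros kept and each array left out. The code was tested on simulated data. The number of arrays limits the precision. Of 135 list genes 109 were in the table, through current or older symbols. The rule for named genes takes the members, the called list genes (at most 4 per list and line), STAT2, IRF9, 3 genes most like each member and 4 line markers. Of the signalling list, 1 gene is not reported here and is left out of that list's counts and medians. Members and lists were chosen with earlier results of these data known.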

Additional observations from a re-analysis of the deposited data

How the results depend on the processing

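No member was called for the treatment in the unpaired fit or under any alternative to it; IFIT1 and IFIT2 of SNU398 were called in the fit to the pairs of that line, also there after centring, after quantile normalization and with a trend and robust variance. No member's mean over all 12 arrays reached log2 9, so that filter gave no member values. Genes called for the treatment numbered 0 unpaired, with any 1 array left out. The replicate block over all 6 pairs called 1 gene for the average. The replicate block within 1 line called 25 genes in HCT116 and 710 in SNU398; chosen after seeing the data, centring gave 28 and 738, quantile normalization 845 in SNU398, a trend and robust variance 303 in SNU398, both 0 in HCT116, and a mean log2 of at least 9 gave 2 and 482. Genes called for levels, with any 1 array left out, numbered 1722 to 4707 in HL60 minus HCT116 (all arrays 3011), 778 to 5603 in SNU398 minus HCT116 (2219) and 1517 to 3832 in SNU398 minus HL60 (2757). With pairs averaged, also added, they numbered 240, 22 and 497, and with arrays centred as well 978, 272 and 1303. For treatment differences, leaving out 1 array gave ranges that crossed 0 for IFIT2 in HCT116 (-0.81 to 1.91), IFIT3 in SNU398 (-0.12 to 0.032) and IFIT5 in HCT116 (-0.60 to 1.04), HL60 (-0.10 to 0.33), SNU398 (-0.036 to 0.12) and on average (-0.15 to 0.40). For SNU398 minus HCT116 these ranges were -0.59 to 0.91 for IFIT1, -1.36 to 1.36 for IFIT2 and -1.003 to 0.64 for IFIT5. For HL60 minus HCT116 they were -0.72 to 2.00 for IFIT2, -0.38 to 0.72 for IFIT3 and -0.93 to 0.71 for IFIT5, and for SNU398 minus HL60 -0.29 to 0.14 for IFIT5. For levels they were -0.87 to 0.50 (IFIT2) and -0.25 to 0.58 (IFIT5) in HL60 minus HCT116, -0.47 to 0.079 (IFIT3) and -0.15 to 0.68 (IFIT5) in SNU398 minus HCT116, and -0.0085 to 0.21 (IFIT5) in SNU398 minus HL60. With arrays centred, pairs averaged or not, the level turned to -0.30 for IFIT3 and -0.62 for IFIT5 in HL60 minus HCT116, and to -0.54 for IFIT5 in SNU398 minus HCT116. Quantile normalization turned the IFIT5 level to -0.013, -0.018 and -0.0052 (HL60 minus HCT116, SNU398 minus HCT116, SNU398 minus HL60), the IFIT5 treatment difference of HL60 minus HCT116 to 0.0061, and that of IFIT2 in SNU398 minus HCT116 to 0.10. Without replicate 2 of both HCT116 groups, added after seeing the data, IFIT5 turned to -0.030 in HCT116, to 0.14 in HL60 minus HCT116 and 0.070 in SNU398 minus HCT116, and to -0.53 and -0.43 as levels; IFIT2 in SNU398 minus HCT116 became 0.22. Without replicate 2 of both HL60 groups the HL60 minus HCT116 level became 0.19 for IFIT2 and -0.0093 for IFIT5. The causes were not tested. Detection above background was not analysed here, so low levels of any member cannot be told from background. Besides low levels of IFIT3 and IFIT5, these include IFIT1 in HL60 (7.58 to 7.84) and IFIT2 in SNU398 with 5-Aza-CdR alone (7.50 and 7.78).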
